A study of Mus musculus with 12 samples.

Results

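Expression of 10 genes of early myeloid differentiation was followed by RNA-seq in LSK cells of 6 WT and 6 Fancg KO mice. The genes were chosen by name and function, as 5 transcription factors that prime progenitors for the myeloid fate (Spi1, Cebpa, Cebpb, Irf8 and Gfi1) and 5 genes of primary granules and granulocyte-monocyte progenitors (Mpo, Elane, Prtn3, Ctsg and Ms4a3), and are 10 of the 35999 genes in the table. LSK cells are bone marrow cells without lineage markers that carry Sca-1 and CD117 (KIT), a population of hematopoietic stem cells and multipotent progenitors. The KO mice are Fancg-/- animals, which lack a component of the Fanconi anemia DNA repair complex throughout the body. Cells of both genotypes were sorted in the same way after depletion of mature cells, no treatment is given for either, and the age, sex and strain of the mice are not given in the sources used here. Each library came from 1 mouse and is named here by its label and the number in its title, which runs from 2 to 7 in both genotypes.

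In the marrow, myeloid commitment starts in multipotent progenitors, where PU.1 (the product of Spi1) and C/EBPα act together on enhancers and promoters of myeloid genes, and GFI1 and IRF8 then favour the granulocytic and the monocytic and dendritic branch. Proteins of the primary, or azurophil, granules are made early, at the progenitor and promyelocyte stage, and stored for release by the mature neutrophil. Low transcription of such genes in cells that are still multipotent is often described as lineage priming. In bulk libraries such as these, fewer cells that express a gene and less RNA of it per cell cannot be told apart.

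Elane, Prtn3 and Ctsg encode related serine proteases. Elane (neutrophil elastase) starts 3072 bases after the end of Prtn3 (proteinase 3) on mouse chromosome 10, both on the plus strand, while Ctsg (cathepsin G) lies on chromosome 14. The 100 bases ahead of the first exon of the GENCODE basic transcript are shown for these proteases and for Ms4a3, because these genes moved together across libraries. They come from the RefSeq promoter table of build GRCm38.p6, at chr10:79879514-79879613 (plus strand) for Prtn3, chr10:79886147-79886246 (plus) for Elane, chr14:56102575-56102674 (minus) for Ctsg and chr19:11640852-11640951 (minus) for Ms4a3, where the Prtn3 stretch lies in an intron of a longer Prtn3 transcript. Capitals mark GAGGAAGT (a PU.1 motif) and AACTG or its reverse complement (the core of MYB motifs).
Prtn3: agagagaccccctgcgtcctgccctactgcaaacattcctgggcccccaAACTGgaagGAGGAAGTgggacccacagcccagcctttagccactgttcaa
Elane: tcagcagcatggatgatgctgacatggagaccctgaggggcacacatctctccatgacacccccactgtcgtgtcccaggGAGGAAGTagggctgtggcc
Ctsg: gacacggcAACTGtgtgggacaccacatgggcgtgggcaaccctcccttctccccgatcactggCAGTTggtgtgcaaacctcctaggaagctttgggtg
Ms4a3: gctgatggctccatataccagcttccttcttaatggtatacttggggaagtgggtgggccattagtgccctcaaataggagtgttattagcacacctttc

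The 8 bases GAGGAAGT lie 95 to 88 bases before the RefSeq start of Prtn3 and 85 to 78 bases before that of Elane. In the 250 bases before the start, searched on both strands, they were found for Mpo, Elane and Prtn3 among the 9 members in the table (all but Spi1), and in 2.44% of all 32851 promoters. The 5-base core AACTG was found for Irf8, Gfi1, Mpo, Prtn3 and Ctsg and in 39.1% of all promoters, and the related core AACGG, searched after the sequences had been seen, for Cebpa, Irf8, Elane and Prtn3 and in 14.5%. TTGCGCAA and TTGCGAAA (C/EBP motifs) and AACCGTTA (a longer MYB motif) were found for none of the 9 and in 0.164%, 0.143% and 0.134% of all promoters. AAATC (the core of GFI1 motifs) was found for Irf8 and Mpo and in 32.7% of all promoters, and CCAAT for Irf8, Elane and Ms4a3 and in 33.8%. These matches are letters in a window and not measured sites, and the factors' binding was not measured here.

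Values are the signal deposited per gene and library, taken to be reads estimated for the gene and scaled by 1 size factor per library. It summed to about 1576080 to 2672920 per library, which corresponds to about 1235110 to 2471210 reads. Fancg, the targeted gene, had a signal of 10.3 ± 6.96 (SD, n = 6) in WT and 8.53 ± 4.18 (SD, n = 6) in KO libraries (two-sided exact permutation test, p = 0.636), so its signal did not separate the labels. The summed signal of 4 Y-linked genes was 26.6 in WT library 3 and 49.7 in KO library 7, against at least 189 in the other libraries. Of the LSK markers, Kit (the CD117 receptor) had a signal of 336 ± 34.1 in WT and 351 ± 62.5 in KO, Cd34 646 ± 43.2 and 595 ± 56.5, and Ly6a (Sca-1) 11.5 ± 5.03 and 10.1 ± 4.603 (SD, n = 6 each).

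None of the 10 genes differed between WT and KO beyond the spread between mice. The 5 granule genes varied between 3.52-fold (Prtn3) and 42.1-fold (Elane) among mice of one genotype, correlated with each other across the libraries, and were highest in library 6 of both labels. The transcription factors Spi1, Irf8 and Gfi1 varied about as much as other genes of like signal, and no factor was correlated with a granule gene past the adjusted threshold.

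Mpo (chr11:87793581-87804413, plus strand, positions here and for the other genes from GENCODE on GRCm38) encodes myeloperoxidase, the enzyme of primary granules that makes hypochlorous acid. Its signal in WT libraries was 255 at the lowest, 529 at the median and 1513 at the highest, and in KO libraries 318, 573 and 1650.0. Library 6 was the highest of both labels, at 2.86 and 2.88 times the median of its label, and WT library 2 and KO library 3 were the lowest. All KO libraries except library 6 lay within the WT range. The difference, KO minus WT, was 0.09 on the log2(signal + 1) scale (95% interval -0.80 to 0.98), or a ratio of 1.06 (0.575 to 1.97), with an adjusted p of 0.9996 by limma with Benjamini-Hochberg adjustment.

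Elane (chr10:79886247-79888215, plus strand) encodes neutrophil elastase and is the gene mutated in many patients with severe congenital neutropenia. Its WT signals were 6.02, 70.3, 92.5, 43.4, 253 and 38.9 in libraries 2 to 7, and the KO signals were 16.2, 32.6, 64.9, 60.0, 269.9 and 64.2 in the same order. Library 2 was the lowest and library 6 the highest in both labels, and the ranges overlapped almost in full. The highest library exceeded the lowest 42.1-fold in WT and 16.7-fold in KO. The lowest value, in WT library 2, corresponds to about 5.00 reads, and the highest of all to about 238 reads. The difference between labels was 0.16 on the log2(signal + 1) scale (95% interval -1.37 to 1.69), or a ratio of 1.12 (0.387 to 3.22).

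Prtn3 (chr10:79874476-79883174, plus strand) encodes proteinase 3, a serine protease that is stored beside elastase. WT libraries had signals from 49.9 over a median of 99.4 to 178 and KO libraries from 58.3 over 106 to 206. Library 6 was again the highest of both labels, but the range was narrower than that of Elane, with 3.57-fold between the highest and the lowest WT library and 3.52-fold in KO. The difference was 0.07 (95% interval -0.58 to 0.72) on the log2(signal + 1) scale. Part of its exons overlaps Plppr3 on the opposite strand, which had a signal of 29.9 to 52.9, and whether the quantification used strand is not given in the sources used here.

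Ctsg (chr14:56099881-56102574, minus strand) encodes cathepsin G, another serine protease of these granules. Its signal ran from 31.1 over a median of 58.2 to 251 in WT and from 52.4 over 84.6 to 248 in KO, and the highest value of both labels was in library 6. The KO median was above the WT median, but all 6 KO libraries lay within the WT range. The difference was 0.36 (95% interval -0.59 to 1.31), with a two-sided exact permutation p of 0.5 and an adjusted limma p of 0.9996 (Benjamini-Hochberg).

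Ms4a3 (chr19:11629496-11640851, minus strand) encodes a tetraspanning membrane protein that marks granulocyte-monocyte progenitors and their descendants. The signal of this gene ran from 5.11 over a median of 11.5 to 39.6 in WT and from 7.55 over 12.8 to 63.0 in KO. Library 6 was the highest and library 2 the lowest of both labels. The difference was 0.33 (95% interval -0.81 to 1.48), and the lowest library had about 4.25 reads of the gene, so counting error is part of its spread.

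**Figure D1:**
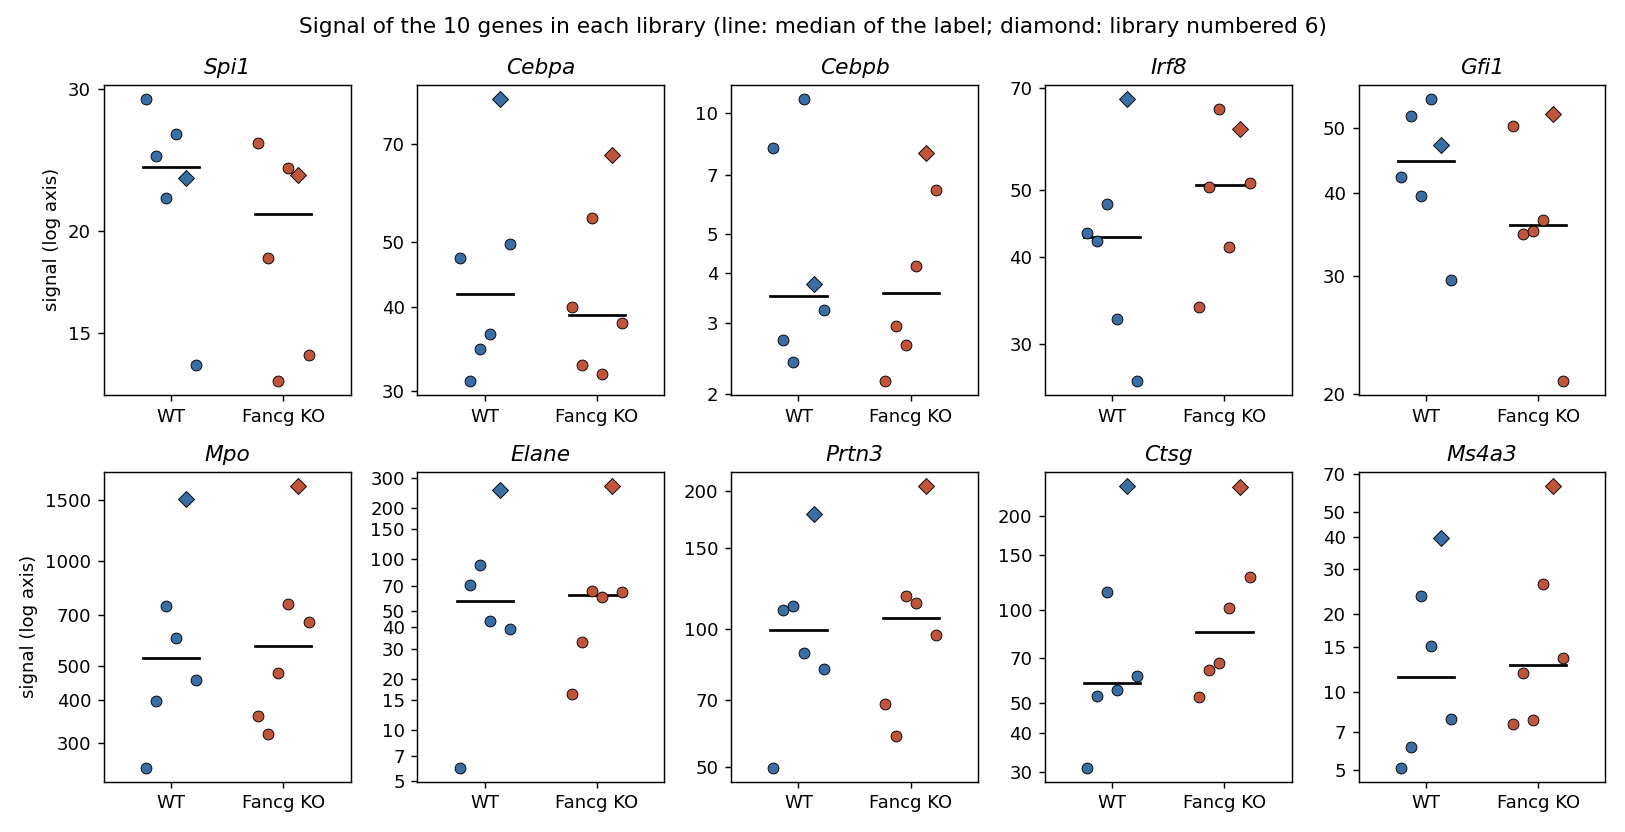
Signal (log axis, a separate range for each gene) of the 10 genes in the 6 WT (blue) and 6 Fancg KO (red) libraries, in the order of the library numbers, with a line at the median of each label and diamonds for library 6. The diamonds are the highest points of both labels for Cebpa, Mpo, Elane, Prtn3, Ctsg and Ms4a3, and the labels overlap for every gene.

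Spi1 (chr2:91082390-91115756, plus strand) encodes PU.1, the ETS factor required for myeloid and B lymphoid development. In WT it had a signal from 13.7 over a median of 24.0 to 29.1, and in KO from 13.1 over 21.03 to 25.7. WT library 7 and KO libraries 4 and 7 were the low ones, at 13.7, 13.1 and 14.1, and the other libraries of both labels lay between 18.6 and 29.1. The difference was -0.23 (95% interval -0.72 to 0.26) on the log2(signal + 1) scale, with a two-sided exact permutation p of 0.310 and an adjusted limma p of 0.9996 (Benjamini-Hochberg).

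Cebpa (chr7:35119293-35121928, plus strand) encodes C/EBPα, which is needed for the step from the common to the granulocyte-monocyte progenitor. The WT and KO ranges were alike, from 31.04 over a median of 41.9 to 81.6 in WT and from 31.8 over 38.9 to 67.4 in KO. As for the granule genes, library 6 was the highest of both labels, at 1.95 and 1.73 times the label's median, and the other libraries lay between 31.04 and 54.3. The difference was -0.06 (95% interval -0.58 to 0.46).

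Cebpb (chr2:167688915-167690418, plus strand) encodes C/EBPβ, the family member used in emergency granulopoiesis. Its mean signal of 4.79 was below the minimum of 10 for the model across genes, and its values correspond to about 2.00 to 16.0 reads per library. The signal ran from 2.398 over a median of 3.50 to 10.8 in WT and from 2.16 over 3.56 to 7.94 in KO, and the difference of -0.14 was far inside this spread (two-sided exact permutation test, p = 0.693). Its single exon overlaps Tmem189 on the opposite strand, which had a signal of 8.40 to 28.7, and reads of the pair cannot be told apart without strand. Mpo, Cebpa and Gfi1 likewise share exon bases with the antisense genes Gm11505, Gm45091 and A430072P03Rik, which were not analysed here.

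Irf8 (chr8:120736358-120756694, plus strand) encodes the interferon regulatory factor of monocyte and dendritic cell commitment. Its signal ran from 26.6 over a median of 42.8 to 67.5 in WT and from 33.96 over 50.9 to 65.3 in KO. WT libraries 5 and 7 were lower than every KO library, while WT library 6 was the highest of all. The difference was 0.24 (95% interval -0.23 to 0.71), with a two-sided exact permutation p of 0.314 and an adjusted limma p of 0.9996 (Benjamini-Hochberg).

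Gfi1 (chr5:107716657-107726036, minus strand) encodes a zinc finger repressor that restrains stem cell proliferation and supports granulocyte differentiation. Its signal ran from 29.6 over a median of 44.7 to 55.3 in WT and from 20.9 over 35.8 to 52.6 in KO. Library 7 was the lowest of both labels, and KO libraries 2 and 6 were as high as the upper WT libraries. The difference was -0.24 (95% interval -0.71 to 0.24), with a two-sided exact permutation p of 0.342 and an adjusted limma p of 0.9996 (Benjamini-Hochberg).

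Of the 9 members tested with limma, 0 had an unadjusted p under 0.05, where 326 of 8887 genes, or 3.67%, did. After Benjamini-Hochberg adjustment 0 members and 0% of all genes passed, and 0 members had labels that did not overlap, where 0.09% of all genes did. The 95% intervals, with the mice taken as unpaired, were narrowest for Irf8 and Gfi1 and widest for Elane and Ms4a3. The intervals of Elane and Ms4a3 allow ratios of KO to WT of 0.387 to 3.22 and 0.570 to 2.79. All 5 granule genes had a difference above 0, with a median of 0.16, and of the 4 tested factors Irf8 alone did, with a median of -0.14, beside a median of 0.00 and 50.7% above 0 over all 8887 genes. The signs of the granule genes are not independent, since these genes moved together across the mice.

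**Figure D2:**
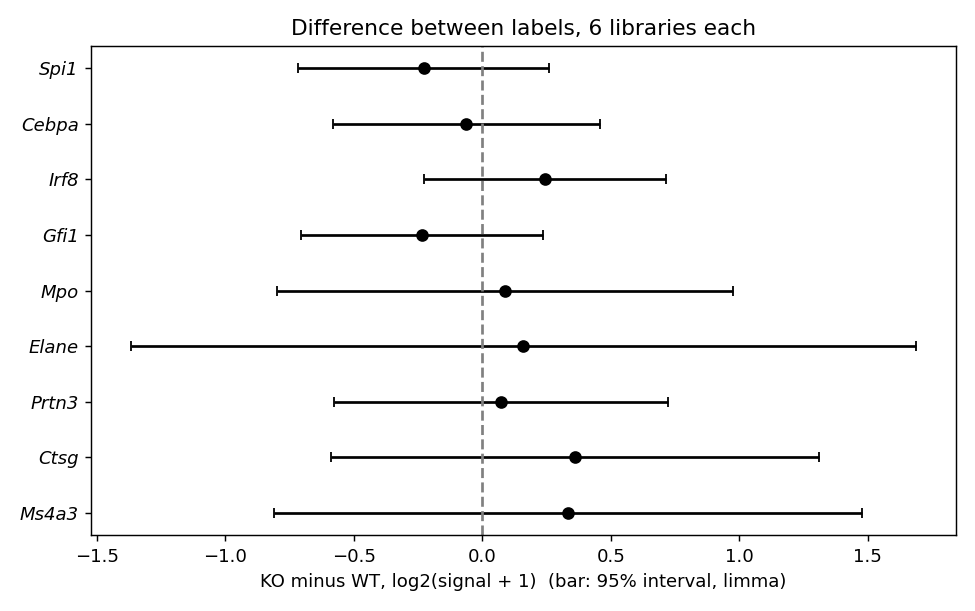
KO minus WT difference on the log2(signal + 1) scale for the 9 genes tested (6 libraries per label), with bars for the 95% interval of limma. Every bar crosses 0, and the bars of Elane, Ms4a3, Ctsg and Mpo are the widest, from -1.37 to 1.69 for Elane.

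Compared per kilobase of merged exon, Mpo and the 3 protease genes formed the upper end of the order, and Ms4a3 lay among the factors. Merged exons join all annotated transcripts of a gene, so the order depends on the annotation. Prtn3 had a higher mean signal (107) than Ctsg (102) and Elane (84.4), but 1732 merged bases against 1033 and 984. The mean signal per kilobase over the 12 libraries was 199 for Mpo, 98.9 for Ctsg, 85.7 for Elane, 61.7 for Prtn3, 17.2 for Cebpa, 12.97 for Gfi1, 10.1 for Ms4a3, 7.98 for Spi1, 6.66 for Irf8 and 3.18 for Cebpb. Mpo was above Ctsg and Prtn3 above Cebpa in 12 of 12 libraries, and Irf8 was above Cebpb in 11. The other neighbours changed places between libraries: Ctsg was above Elane in 8 of 12, Elane above Prtn3 in 5, Gfi1 above Ms4a3 in 7 and Ms4a3 above Spi1 in 5. Cebpa was above Gfi1 in 9 libraries and Spi1 above Irf8 in 8.

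The spread between mice of one label was larger for the 5 granule genes than for the 4 factors tested. The SD within label of log2(signal + 1) was 1.53 for Elane, 1.10 for Ms4a3, 0.94 for Ctsg, 0.87 for Mpo and 0.62 for Prtn3. Against tested genes whose mean signal lay within a factor of 2, these values stood at the percentiles 99.3, 96.9, 97.7, 95.4 and 92.5, and the median of the like genes was 0.33 for Elane and 0.29 for Mpo. Cebpa had an SD of 0.46 and stood at the percentile 67.5, Irf8 at 55.5 with 0.40, Gfi1 at 51.5 with 0.40 and Spi1 at 29.9 with 0.38. The median SD was 0.94 over the granule genes, 0.40 over the 4 factors and 0.41 over all 8887 genes tested. Cebpb, below the minimum signal and so not in this comparison, had an SD of 0.74 in WT and 0.60 in KO, beside 0.60 and 0.64 for Prtn3. Cebpb had about 2.00 to 16.0 reads per library, against 41.4 to 181 for Prtn3. Counting error is thus a larger part of the spread of Cebpb, and the SDs of these 2 genes are not comparable.

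**Figure D3:**
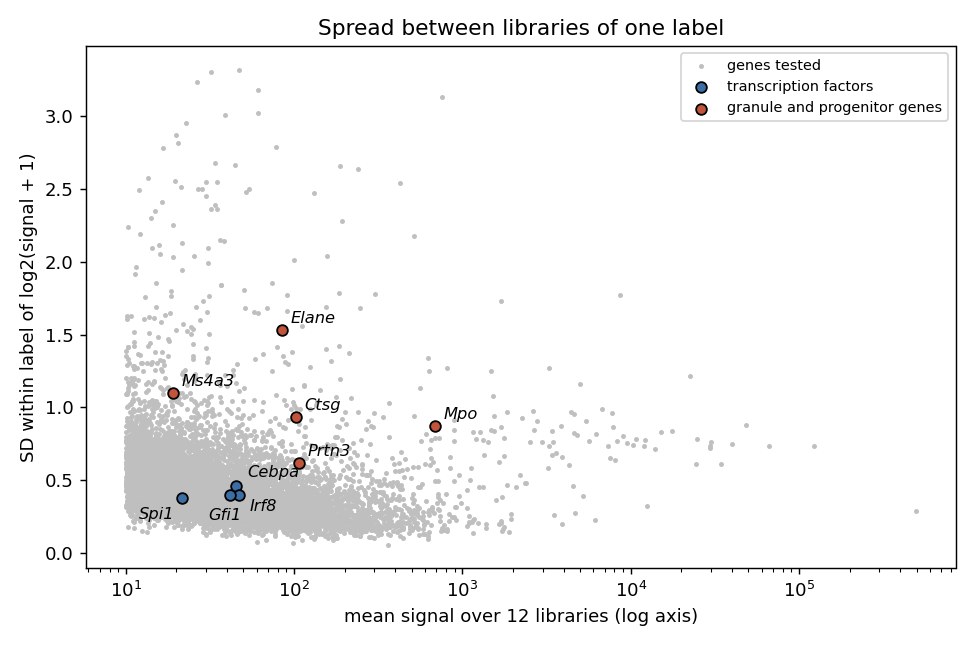
SD within label of log2(signal + 1) against the mean signal over 12 libraries (log axis) for the genes tested (grey), the transcription factors (blue) and the granule and progenitor genes (red). The red points, from 0.62 for Prtn3 to 1.53 for Elane, lie in the upper part of the cloud, at percentiles 92.5 to 99.3 of genes of like signal. The blue points, from 0.38 to 0.46, lie at percentiles 29.9 to 67.5.

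Library 6 accounts for the upper end of this spread in both labels. Relative to the median of the label, Elane was 4.46-fold in WT library 6 and 4.34-fold in KO library 6, Ctsg was 4.31-fold and 2.93-fold, Ms4a3 3.45-fold and 4.94-fold, Mpo 2.86-fold and 2.88-fold, and Prtn3 1.79-fold and 1.95-fold. Spi1 in the same libraries was 0.969-fold and 1.12-fold, and Gfi1 1.06-fold and 1.47-fold. Of the 9 tested members 6, namely the 5 granule genes and Cebpa, were highest in library 6 of both labels, as were 7.42% of all genes tested, a count made after the values had been seen. At the lower end, WT library 2 was the lowest WT library for all 5 granule genes, and the lowest KO library was library 2 for Elane, Ctsg and Ms4a3 and library 3 for Mpo and Prtn3. Both libraries 6 had fewer reads than most, about 1441160 and 1389850, and no source says that mice with the same number shared a litter or a day.

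The granule genes did not move in fixed proportion. Elane was 0.0236 of the signal of Mpo in WT library 2 and 0.0451 in KO library 2, and between 0.0720 and 0.177 of it in the other libraries. The ratio of Prtn3 to Mpo ran from 0.118 in WT library 6 to 0.278 in WT library 3, and was low in both libraries 6. Ctsg kept within 0.0917 to 0.202 of Mpo and Ms4a3 within 0.0154 to 0.0382.

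**Figure D4:**
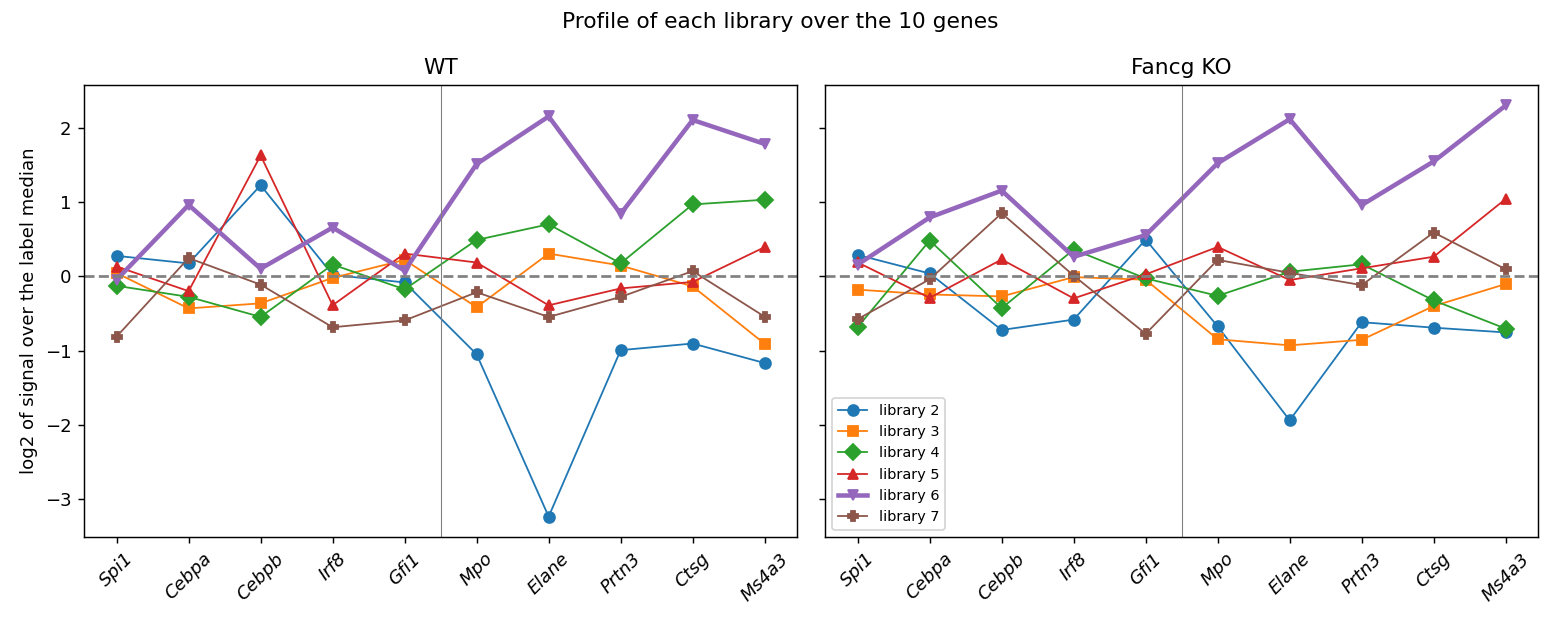
log2 of the signal over the median of the label for each of the 10 genes, 1 line per library, with WT on the left and Fancg KO on the right. Library 6 (thick line) lies above the other libraries for all 5 granule genes, at 4.46 and 4.34 times the median for Elane, and library 2 falls to 0.106 and 0.260 times the median for Elane, while Spi1 in library 6 stays at 0.969 and 1.12 times the median.

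Across the 12 libraries, with values centred within label, all 10 pairs of granule genes were positively correlated, with Pearson's r from 0.78 to 0.96 (median 0.91) and Spearman's rho from 0.66 to 0.97. The closest pair was Mpo with Ctsg, at r = 0.96 (permutation within label, p = 6.0e-05, adjusted over the 45 pairs 0.00157) and rho = 0.97 (permutation p = 3.0e-05, adjusted 0.00135). The neighbours Elane and Prtn3 followed, at r = 0.95 (permutation p = 0.00013, adjusted 0.00195) and rho = 0.96 (permutation p = 7.0e-05, adjusted 0.00157). The weakest pair was Prtn3 with Ms4a3, at r = 0.78 (permutation p = 0.00510, adjusted 0.0229) and rho = 0.66 (permutation p = 0.0333, adjusted 0.136). Of the 10 pairs, 10 had an adjusted permutation p under 0.05 by r and 7 by rho. As a background, Mpo correlated above 0.8 with 2.16% of the other 8886 genes tested, Ctsg with 1.82%, Prtn3 with 1.18%, Ms4a3 with 1.11% and Elane with 0.923%.

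These correlations were weaker without both libraries 6 but stayed positive. The 10 values of r then ran from 0.47 to 0.90, and no p was computed for them. Prtn3 with Ms4a3 fell from 0.78 to 0.47 and Elane with Ms4a3 from 0.81 to 0.57. Without the 2 libraries farthest from the median of the first gene, r ran from 0.62 to 0.92. For the pairs of Mpo and for Ctsg with Ms4a3 these 2 were again both libraries 6. With library 6 kept, r was 0.80 to 0.99 within the 6 WT libraries and 0.77 to 0.96 within the 6 KO libraries. Mpo with Ctsg was at 0.89 without libraries 6, and Elane with Prtn3 at 0.90.

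Among the factors, 1 of 10 pairs had an adjusted permutation p under 0.05 by r and 0 did by rho. Spi1 and Gfi1 were correlated at r = 0.76 (permutation p = 0.00791, adjusted 0.0324) and rho = 0.74 (permutation p = 0.0151, adjusted 0.0744), with r = 0.82 in WT, 0.74 in KO and 0.81 without the 2 farthest libraries. Both genes were low in library 7 of both labels, while KO library 4 was low for Spi1 but near the KO median for Gfi1. Between the factors and the granule genes, 0 of 25 pairs passed, and r ran from -0.15 to 0.58, with the smallest adjusted permutation p at 0.140. Irf8 had r between 0.45 and 0.58 with the 5 granule genes, which fell to between -0.0053 (Ms4a3) and 0.26 (Elane) without both libraries 6. Cebpa had r of 0.56 with Mpo (permutation p = 0.0747, adjusted 0.224; rho 0.29, adjusted permutation p = 0.825), and this too rested on libraries 6, since r was -0.30 without them.

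**Figure D5:**
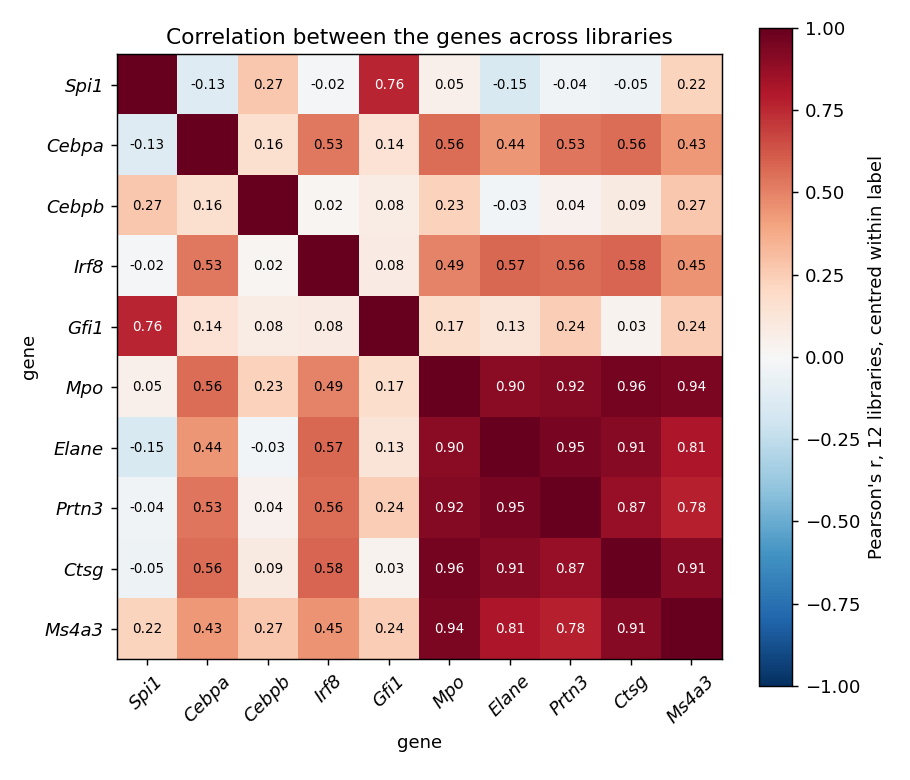
Pearson's r between each pair of the 10 genes over 12 libraries, on log2(signal + 1) centred within label, from -1 (blue) to 1 (red). The block of the 5 granule genes at the lower right holds values from 0.78 to 0.96, and outside it the pair of Spi1 and Gfi1 alone exceeds 0.7, at 0.76.

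Several other genes followed the granule genes closely. Their r is with a mean of genes and the highest among many, so it cannot be set beside the r between single granule genes. By Pearson's r over 12 libraries with the mean of the standardized values of Mpo, Elane, Prtn3 and Ctsg, the 5 closest among 8878 genes were Pdia3 (a protein disulfide isomerase of the endoplasmic reticulum) at 0.97, Ifi209 (an interferon-inducible gene) at 0.95, Ube2s (a ubiquitin-conjugating enzyme of mitosis) at 0.94, Ap3s1 (a subunit of the AP-3 adaptor, which sorts granule and lysosome cargo) at 0.94 and Plac8 at 0.94. An r above 0.7 was seen for 4.99% and below -0.7 for 3.05% of these genes. Chosen after the values were seen, the 5 genes at the opposite end were Gm4759, Ulk2, Cep68, Hlf (a transcription factor of stem cells) and Bcl11a (a factor of stem and lymphoid cells), at -0.94 to -0.90. Hlf had its lowest WT and its lowest KO signal, 38.4 and 38.7, in libraries 6, where the granule genes were highest.

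The other genes of the program were read from lists by function. Of 22 further primary granule and progenitor genes 19 were tested, with 0 higher and 0 lower in KO at an unadjusted limma p under 0.05 and a median difference of 0.06. All 19 correlated positively with the mean of Mpo, Elane, Prtn3 and Ctsg, with a median r of 0.70. As a background, the median r of all other tested genes was 0.06 with Mpo alone, 0.04 with Elane, 0.05 with Prtn3 and 0.05 with Ctsg. Calr (calreticulin, a chaperone that folds myeloperoxidase) had the highest signal of the list, at 335 ± 124 in WT and 353 ± 140 in KO (SD, n = 6 each), with r = 0.89. Of 18 further myeloid transcription regulators 13 were tested, again with 0 in each direction and a median difference of 0.08, and Myb, a factor of immature progenitors that acts on granule gene promoters, had the highest signal at 713 ± 95.5 and 756 ± 125.2. Cebpe, the factor of the later secondary granule stage, was listed at 0 in 8 of 12 libraries.

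Of 10 myeloid growth factor receptors 8 were tested, with 0 higher and 1 lower in KO before adjustment. This was Flt3, the receptor of lymphoid-primed multipotent progenitors, also an LSK marker, which had a signal of 489 ± 95.5 in WT and 358 ± 127 in KO (SD, n = 6 each), a difference of -0.51 (95% interval -0.997 to -0.02). Its limma p was 0.0423 and its adjusted p 0.9996 (Benjamini-Hochberg), and its two-sided exact permutation p was 0.0628. With the replicate number as a block its limma p was 0.0103 (adjusted 0.889). The call before adjustment thus depends on the test, and it did not pass adjustment with or without the block. Flt3 ran against the granule genes, with r = -0.86 with their mean. Of the 10 LSK markers 9 were tested, Flt3 was again the only gene with an unadjusted limma p under 0.05, and Cd34 had the highest signal. The summed signal of the 10 LSK markers was 1706 to 2255 in WT and 1381 to 2086 in KO, lowest in library 6 of both labels, and 1 of the 9 tested genes correlated positively with the granule genes (median r -0.49). The part of this shift in the spread of the granule genes was not tested.

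Genes of mature neutrophils were at or near 0, although the granule genes were well measured. Of 13 markers of secondary granules and mature neutrophils 1 was tested, Padi4, at 27.1 ± 10.9 in WT and 31.9 ± 19.1 in KO (SD, n = 6 each), and its r with the granule genes was -0.24. Chil3, Cd177 and Ly6g were listed at 0 in all 12 libraries, Ltf (lactoferrin) and Camp (cathelicidin) in 11, and of the 12 markers besides Padi4 none exceeded the 4.21 of Lcn2 (lipocalin 2) in any library. The summed signal of the 13 was 22.4 to 48.3 in WT and 16.2 to 73.9 in KO, and it was 25.7 and 38.0 in WT and KO libraries 6. The granule members summed to 347 to 2235 in WT (median 725) and 485 to 2436 in KO (median 853).

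Markers of other lineages moved with the granule genes in part. Of 12 monocyte, macrophage and dendritic markers 6 were tested with 0 called, the sum was 74.3 to 228 in WT and 107 to 231 in KO with the highest value of both labels in library 6, and Ccr2 (a chemokine receptor of monocytes and their progenitors) had the highest signal and an r of 0.94 with the granule genes. Fcgr1 was listed at 0 in 10 libraries, Cd209a in 11 and Adgre1 (F4/80) in 7. Of 10 mast cell, basophil and eosinophil markers 2 were tested with 0 called, with Cpa3 the highest, and the sums were 32.7 to 95.5 in WT and 44.3 to 119 in KO. Of 10 erythroid markers 1 was tested, Car1, with no call, and the sums were 21.4 to 95.1 in WT and 26.5 to 116 in KO. Of 12 lymphoid markers 3 were tested with 0 called, and Dntt (terminal transferase) was the highest. The lymphoid sum was 184 to 639 in WT and 108 to 721 in KO, lowest in library 6 of both labels, and the 3 tested genes had a median r of -0.64 with the granule genes. The part of these cell types in the spread of the granule genes was not tested.

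Libraries 2 to 4 and 5 to 7 differed in immediate-early genes, the early response genes of stimulated cells, in both labels. The summed signal of 10 such genes, a list made after the values were seen, was 343 to 1050 in libraries 2 to 4 and 3185 to 4483 in libraries 5 to 7. Within libraries 2 to 4 the KO minus WT difference was -0.16 for Mpo, -0.10 for Elane, -0.12 for Prtn3, 0.09 for Ctsg and -0.05 for Ms4a3, and within libraries 5 to 7 it was 0.33, 0.42, 0.27, 0.63 and 0.71. For the factors the values were -0.43 and -0.03 for Spi1, 0.16 and -0.28 for Cebpa, -0.45 and 0.17 for Cebpb, 0.12 and 0.37 for Irf8, and -0.16 and -0.31 for Gfi1. The two-sided exact permutation p was between 0.3 and 1 for all 10 genes in both sets, where 3 libraries against 3 cannot go below 0.1. Within libraries 2 to 4 the granule pairs had r from 0.34 to 0.94 and within libraries 5 to 7 from 0.83 to 0.99. All 10 immediate-early genes correlated positively with the mean of Mpo, Elane, Prtn3 and Ctsg (median r 0.67). With each of these 4 genes alone, the median r of all other tested genes was 0.04 to 0.06. The share of all tested genes with a positive r with the mean was not counted. The geometric mean of each of the 5 granule genes was higher in libraries 5 to 7, which include libraries 6, in both labels. For Mpo it was 422 in WT and 379 in KO in libraries 2 to 4, and 746 and 940 in libraries 5 to 7. Among the factors, the geometric mean of Gfi1 was lower in libraries 5 to 7 in both labels. It went from 44.3 to 42.6 in WT and from 39.4 to 34.3 in KO. That set held the lowest Gfi1 signals, 29.6 in WT library 7 and 20.9 in KO library 7. It also held the highest, 55.3 in WT library 5 and 52.6 in KO library 6, so the set as a whole was not lower. The part of the immediate-early difference in the spread of the 10 members was not tested.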

How the data were processed

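mRNA was enriched from RNA of sorted LSK cells of 12 mice, and libraries were prepared with the CATS chemistry and sequenced on a NextSeq instrument. The authors deposited 1 table of signal values, which by its name and numbers holds estimated counts scaled by size factors, and used kallisto per the labels. The mouse build, annotation and strand setting are not given in the sources used here. Labels came from the genotype field and library numbers from the titles, and 0 columns were left unused.

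Values were used as deposited. The 8887 of 35999 genes whose mean signal reached 10 were compared on log2(signal + 1) with limma 3.58.1 in R 4.3.3 (trended empirical Bayes, two-sided p, Benjamini-Hochberg adjustment across these genes), with no covariate, and the p-values measure the spread between single mice. A log2 difference with a pseudocount understates the change of genes of low signal. Members were also compared with a two-sided exact permutation test, whose smallest p for 6 against 6 is 0.00216. Pairs were correlated on values centred within label, with 100000 permutations within label, which take the libraries as independent. Only 12.3% to 13.2% of values per library were whole multiples of the commonest low value (tolerance 0.01 reads), so tests for counts were not used, the depth is approximate and no counting interval is given. All gene names were found in GENCODE M21 (GRCm38), which gave positions and exon lengths. The steps were tested on simulated data. The share of 31-base words that a member shares with other genes was at most 0.798%.

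The members and lists were chosen with earlier results of these data known. All 10 members are named, and from each list the gene of highest signal and those with an unadjusted p under 0.05, plus the 5 genes most like Mpo, Elane, Prtn3 and Ctsg. Other genes named were picked after their values were seen. A call for a gene of the lists under 1 alternative is not reported here. Alternatives were other pseudocounts (0.5 and 5), filters, scalings and variance models, the replicate number as a block, and leaving out libraries. The splits into libraries 2 to 4 and 5 to 7 and the fit without both libraries numbered 6 were added after the values were seen.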

Additional observations from a re-analysis of the deposited data

Results flagged for a closer look

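In 5 of 20 groups of 6 libraries (10 genes in 2 labels), the highest library stood apart from the others by Dixon's criterion. Chance gives about 1 for independent groups of normally distributed values. The criterion was applied to signal that was not logged and is skewed upward, and the granule genes moved together. The count of 5 is therefore no measure of an excess over chance. All 5 were libraries numbered 6. They were Elane at 253 in WT and 269.9 in KO, Mpo at 1650.0 in KO, Ms4a3 at 63.0 in KO and Cebpa at 81.6 in WT.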

How the results depend on the processing

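Of 240 differences of members recomputed under alternatives, 220 kept their sign, and in 0 of the alternatives did a member reach an unadjusted p under 0.05. The filters, the model without trend, the replicate block and the term for libraries 2 to 4 against 5 to 7 cannot change a difference, only its error. Their signs were fixed in advance, so the count of kept signs overstates stability. Without WT library 3 and KO library 7 the difference of Mpo turned to -0.044, and the differences of Gfi1 (-0.026), Spi1 (-0.12), Cebpa (-0.13), Cebpb (-0.37), Prtn3 (0.12), Ctsg (0.18) and Ms4a3 (0.19) moved by over 1.5 times without a change of sign. Within libraries 2 to 4 the sign turned for Cebpa (0.16), Mpo (-0.16), Elane (-0.10), Prtn3 (-0.12) and Ms4a3 (-0.045), and within libraries 5 to 7 for Cebpb (0.17). These differences were within their errors in the main comparison too.

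With each library left out in turn, the difference ran from -0.36 to -0.12 for Spi1, -0.19 to 0.11 for Cebpa, -0.31 to 0.082 for Cebpb, 0.12 to 0.38 for Irf8, -0.34 to -0.08 for Gfi1, -0.20 to 0.37 for Mpo, -0.42 to 0.61 for Elane, -0.13 to 0.25 for Prtn3, 0.085 to 0.71 for Ctsg and -0.047 to 0.65 for Ms4a3. For Cebpa, Mpo, Prtn3, Ctsg and Ms4a3 the lowest value came without KO library 6 and the highest without WT library 6, and for Elane the lowest came without WT library 2. The lowest unadjusted limma p was 0.0800, for Ctsg. Over all genes, 275 to 383 had an unadjusted p under 0.05 and 0 passed adjustment, as with the members (0 to 0).

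The count of all genes with an unadjusted p under 0.05 was 326, and 836 with no filter and 91 with a mean signal of at least 50, where the number of genes tested changed. With totals scaled without the 15 highest genes, 174 were higher and 82 lower in KO (68.0% higher), against 176 and 150 (54.0%), and the median of all genes moved to 0.04. Within libraries 5 to 7, 1 gene passed adjustment, Gm26992 (named after its value was seen), at 5.62 and an adjusted limma p of 0.0163. Without WT library 3 and KO library 7, Flt3 was at -0.47 and no longer passed before adjustment, while Serpinb1a (-0.56) and the Y-linked Eif2s3y (-0.71) did (adjusted p = 0.970 by limma for both).

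The fit with the replicate number as a block left every member's difference as it was, since every number is found in both labels. It called 0 members and 476 genes before adjustment, with 0 after. The limma standard error fell for every tested member. It went from 0.418 to 0.159 for Mpo, 0.719 to 0.268 for Elane, 0.447 to 0.217 for Ctsg and 0.230 to 0.190 for Spi1. Zeb2, F13a1, Ccr2, Dntt and Il7r of the lists passed before adjustment with the block alone (adjusted p = 0.889 by limma). Same-numbered libraries correlated at 0.20 on average (0.09 to 0.36, over 0.1 in 4 of 6 pairs) and others at -0.04, and 9 of 12 libraries correlated best with their own number, a hint of pairing in the data. The numbers were not taken as pairs because no label ties same-numbered mice and 2 of the 6 correlations were not over 0.1. If the numbers are pairs, the intervals given for the members, which come from the fit without the block, are too wide. The permutation p-values of the correlations, which take the libraries as independent, could then be too small.

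Depth limits the genes of few reads, Cebpb, Ms4a3 and Elane in library 2. Cebpb had no value under quantile scaling, scaled totals, no trend, the filter of 50 or the fit with a term for libraries 2 to 4 against 5 to 7, and Spi1, Cebpa, Irf8, Gfi1 and Ms4a3 fell below the filter of 50. Tests for counts were not run because whole reads could not be recovered.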
